A study of Capra hircus with 3 samples.

Results

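Mast-like cells were taken from single-cell RNA sequencing of fetal goat dorsal skin as every cell with at least 1 UMI (unique molecular identifier, a count of 1 captured RNA molecule) for at least 2 of the 4 genes CPA3, MS4A2, HPGDS and HDC. The rule found 54 cells among the 20676 cells of the series: 6 of 6931 at E90 and 48 of 6896 at E120. Skin came from the back of Northern Shaanxi White Cashmere goat fetuses, and each stage was 1 droplet-based 3′ library in which cells of at least 2 fetuses, prepared separately, had been pooled before barcoding. E90 skin, like that of E60, was treated whole with collagenase IV and broken up by pipetting, whereas at E120 hair follicles were picked by forceps from collagenase-treated skin and then dissociated with TypLE Express. The animals carried no labelled genetic change or treatment. Stage, library and dissociation cannot be told apart, and with 1 library a stage no difference was tested. Counting intervals are given instead: exact Poisson for sums, and exact binomial (Clopper-Pearson) for shares, at 95%. They cover counting error only, not the spread between fetuses.

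Mast cells are tissue-resident leukocytes that arise from blood-borne progenitors and settle in the skin before birth. They depend on stem cell factor, the ligand of the receptor tyrosine kinase KIT, and they carry the high-affinity receptor for IgE, whose alpha chain is FCER1A and whose beta chain is MS4A2. When activated they release granules that hold proteases, histamine and heparin bound to the proteoglycan serglycin (SRGN), and they make prostaglandin D2 and leukotriene C4 from arachidonic acid. The transcription factors GATA2, GATA1 and MITF are known for their part in mast cell identity. Of the genes of the rule, CPA3 is a granule carboxypeptidase, HPGDS makes prostaglandin D2, and HDC makes histamine.

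The share of mast-like cells was 0.0866% (interval 0.0318% to 0.188%) at E90 and 0.696% (interval 0.514% to 0.922%) at E120. At E60 no cell of 6849 met the rule, with an exact upper bound of 0.0538% (a limit of 3 cells would be 0.0438%). All 6 E90 cells held 2 of the 4 marker genes and no more. At E120, 40 cells held 2, 7 held 3 and 1 held all 4. CPA3 was in every mast-like cell, with 1, 12 and 23 UMIs as the lowest, median and highest at E90 and with 1, 8 and 24 at E120. MS4A2 was in 4 of the E90 cells and 30 of the E120 cells, HPGDS in 1 and 21, and HDC in 1 and 6. These values chose the cells and are a description only. In the rest of the E120 library MS4A2 and HDC had no UMI and HPGDS had 2, while at E90 the other cells held 7, 7 and 20 UMIs of MS4A2, HDC and HPGDS.

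The libraries were of unequal depth, with a median of 3714 UMIs per cell at E90 and 13064 at E120. Mast-like cells had a median of 4569.5 UMIs (3272 to 6639) at E90 and 4008.5 (2523 to 34953) at E120. Thus 29 of the 48 E120 cells lay under 1/3 of their library's median, and 1 lay above its 95th percentile. After each cell had been thinned to 2000 UMIs, mast-like cells had a median of 844 genes at E90 and 791 at E120, against 765 and 711 in the other cells. Mitochondrial UMIs made up a median of 7.39% in mast-like cells and 11.1% in other cells at E90, and 2.55% and 5.27% at E120. E90 and E120 shared 13 cell barcodes, E60 and E90 shared 9, and E60 and E120 shared 10, and none of these belonged to a mast-like cell. Summed over mast-like cells the depth was 28088 UMIs at E90 and 306669 at E120. Sums weight each cell by its depth, so the 7 E120 mast-like cells above 10000 UMIs count for more than the others. Levels below are CPM (counts scaled to a total of 1000000 for the sum), so that 1 UMI was 35.6 CPM in E90 mast-like cells and 3.26 CPM in those of E120. A count of 0 allowed up to 107 CPM and 9.78 CPM respectively (3 UMIs).

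Outside the rule, the mast cell label rested on FCER1A, KIT and GATA2, each found in most mast-like cells. They belong to longer lists of 23 receptor and 28 factor genes found in the table. Of those, 14 and 15 had no UMI in mast-like cells at E90, and 9 and 7 had none at E120. FCER1A was in 5 of 6 E90 cells and 46 of 48 E120 cells, KIT in 5 and 41, and GATA2 in 5 and 47. All 3 genes together were in 5 of 6 and 40 of 48 cells. The other cells of the same libraries had a UMI of FCER1A in 2.35% and 1.36% of cells, at medians of 3713 and 13107 UMIs per cell. The label did not hold for 1 cell of each stage, which had no UMI of the 3 genes. The E90 cell met the rule with 1 UMI of CPA3 and 1 of MS4A2, held 4962 UMIs in all, and had 8 UMIs of the basal keratin KRT14 and 5 of the collagen gene COL1A1. The E120 cell had 1 UMI of CPA3, 12494 UMIs in all and no UMI of the leukocyte gene LAPTM5.

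Cells just outside the rule were of several kinds. At E90, 196 cells had exactly 1 of the 4 genes and at E120 107 did, and CPA3 was that gene in 163 and 105 of them. Their marker genes summed to a median of 1 UMI per cell at both stages, with highest values of 15 and 23, against 13.0 (2 to 24) and 9.0 (2 to 26) inside the rule. At E120, 53 cells had CPA3 as their only marker gene with at least 2 UMIs. Their summed levels of genes outside the rule were near those of mast-like cells. FCER1A stood at 1091 CPM against 1357, GATA2 at 1554 against 1376, KIT at 524 against 502, and LAPTM5 at 1720.0 against 1490.2. The 52 E120 cells with a single CPA3 UMI had 2.30 CPM of FCER1A and 9.21 CPM of GATA2, where cells with none of the 4 genes had 0.500 and 2.73. At E90 the 20 cells with CPA3 alone at 2 UMIs or more lay between, with 242 CPM of FCER1A against 1104 in mast-like cells, 777 against 1531 of GATA2 and 252 against 748 of KIT. The 143 E90 cells with a single CPA3 UMI had 19.0 CPM of FCER1A. The shares of mast-like cells given here count only cells that met the rule.

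**Figure D1:**
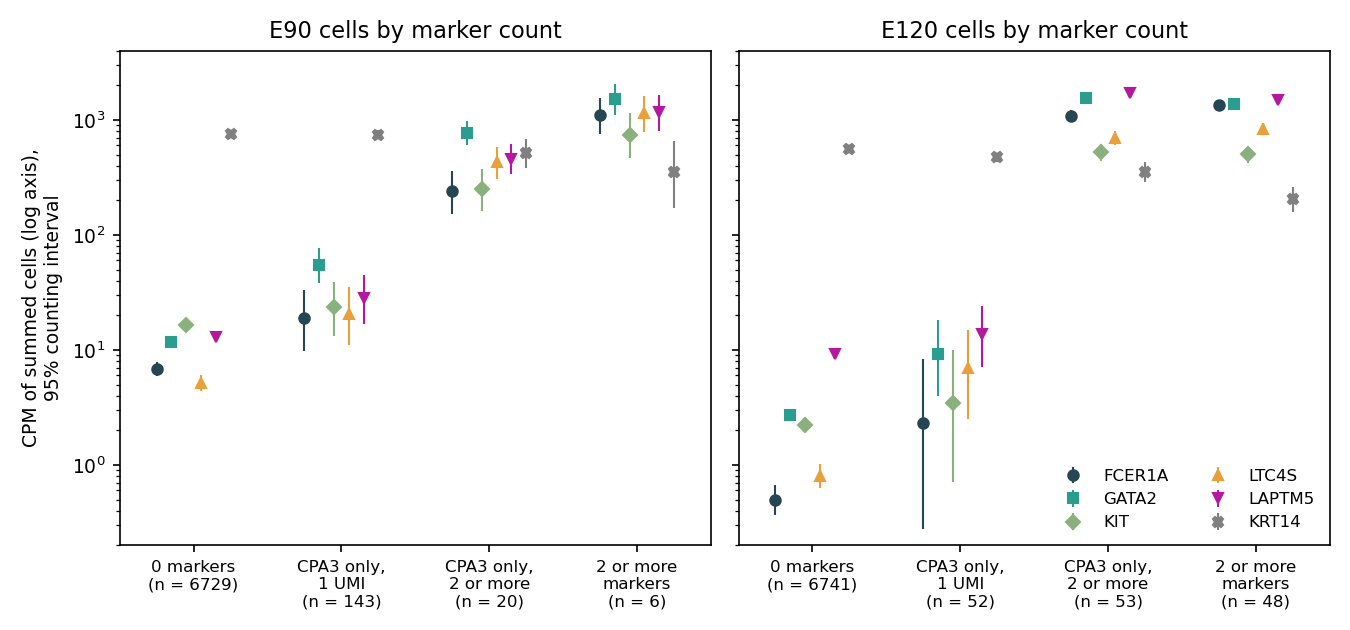
Summed levels of 5 genes that the rule did not use, and of KRT14, a keratinocyte gene, in CPM on a log axis with 95% counting intervals, for cells ordered by their marker genes, at E90 (left) and E120 (right). At E120 cells with CPA3 alone at 2 UMIs or more reached 1091 CPM of FCER1A, near the 1357 CPM of mast-like cells, whereas cells with a single CPA3 UMI had 2.30 CPM.

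Sums over mast-like cells were set against sums over all other cells of the same library. The other cells included those with 1 marker gene. At E120 the 53 cells with CPA3 alone at 2 UMIs or more held 302 of the 353 FCER1A UMIs of the other cells. For FRZB they held 277 of 383, and for LAPTM5 476 of 1362. A gene was counted as higher or lower where the log2 ratio of CPM + 1 passed 1 in size and the higher sum reached 100 CPM, which was 3 UMIs in the E90 mast-like cells. At E90, 1740 genes reached that level, of which 651 were higher (37.4%) and 239 lower (13.7%). At E120, 1320 genes did, of which 246 were higher (18.6%) and 96 lower (7.27%). The median log2 ratio of these genes was 0.54 at E90 and -0.04 at E120. With 6 cells the E90 list holds many genes of 3 to 9 UMIs. Only 159 genes passed there when at least 10 UMIs, found or expected, were also required (117 higher and 42 lower). Scaling by median of ratios in place of totals moved the median of the tested genes by -0.81 at E90 and -0.24 at E120 and turned the E90 split to 262 higher and 732 lower, so small ratios have no fixed sign there. At E120 the split became 193 higher and 172 lower.

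Among receptors, FCER1A, KIT and IL1RL1 were higher in mast-like cells than in the other cells at both stages. FCER1A stood at 1104 CPM (interval 749.9 to 1567) in E90 mast-like cells and 8.10 CPM in the other cells, and at 1357 CPM (1229 to 1493) and 3.79 CPM at E120, a ratio of 136 and 358. Its level in cells with none of the 4 marker genes was 6.88 CPM at E90 and 0.500 CPM at E120. In the 6 E90 cells it had 9, 5, 0, 9, 2 and 6 UMIs, and at E120 the lowest, median and highest counts were 0, 7.5 and 35. Thus 1 E90 cell was at 0 and the others overlapped the E120 range. KIT stood at 748 CPM against 17.5 at E90 and at 502 CPM against 3.80 at E120. It had 5, 5, 0, 2, 4 and 5 UMIs in the E90 cells and 0, 2.0 and 32 (lowest, median, highest) at E120. IL1RL1, which encodes the receptor of interleukin 33, stood at 605 CPM against 1.85 at E90 and at 319.6 CPM against 1.27 at E120, with a UMI in 5 of 6 and 38 of 48 cells.

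Of 40 receptor and surface genes listed for mast cells, 23 were in the table under their symbols. At E90, 7 of these reached 100 CPM, and 5 were higher (KIT, FCER1A, IL1RL1, CD69 and ITGB7) and 2 lower (CD9 and CXCR4). At E120, 8 did, and 7 were higher (the same 5 genes, C5AR1 and HRH4) and 1 lower (CD9). Over the 23 genes the median log2 ratio was -0.45 at E90 and 0.00 at E120, where the median of all genes of the table was -0.70 and -0.13. At E90 14 and at E120 9 of the 23 had no UMI in mast-like cells, among them IL4R, IL13RA1, ITGA4 and ENPP3 at both stages. ITGB7, an integrin chain used by mast cell progenitors, stood at 142 CPM (4 UMIs) and 108 CPM against 1.02 and 0.881. C5AR1, the receptor of complement fragment C5a, stood at 496 CPM against 2.59 at E120 and had 2 UMIs at E90, a ratio to the other E90 cells of 15.3 (1.83 to 56.2). HRH4, the H4 histamine receptor, had 49 UMIs in 25 of 48 E120 cells (159.8 CPM against 0.516) and none at E90. CD9, a tetraspanin found on many cells, stood at 178 CPM against 743 at E90 and 218 CPM against 565 at E120. The interval of CXCR4, a chemokine receptor, at E90 (38.8 to 365 CPM from 4 UMIs) included the 319 CPM of the other cells.

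**Figure D2:**
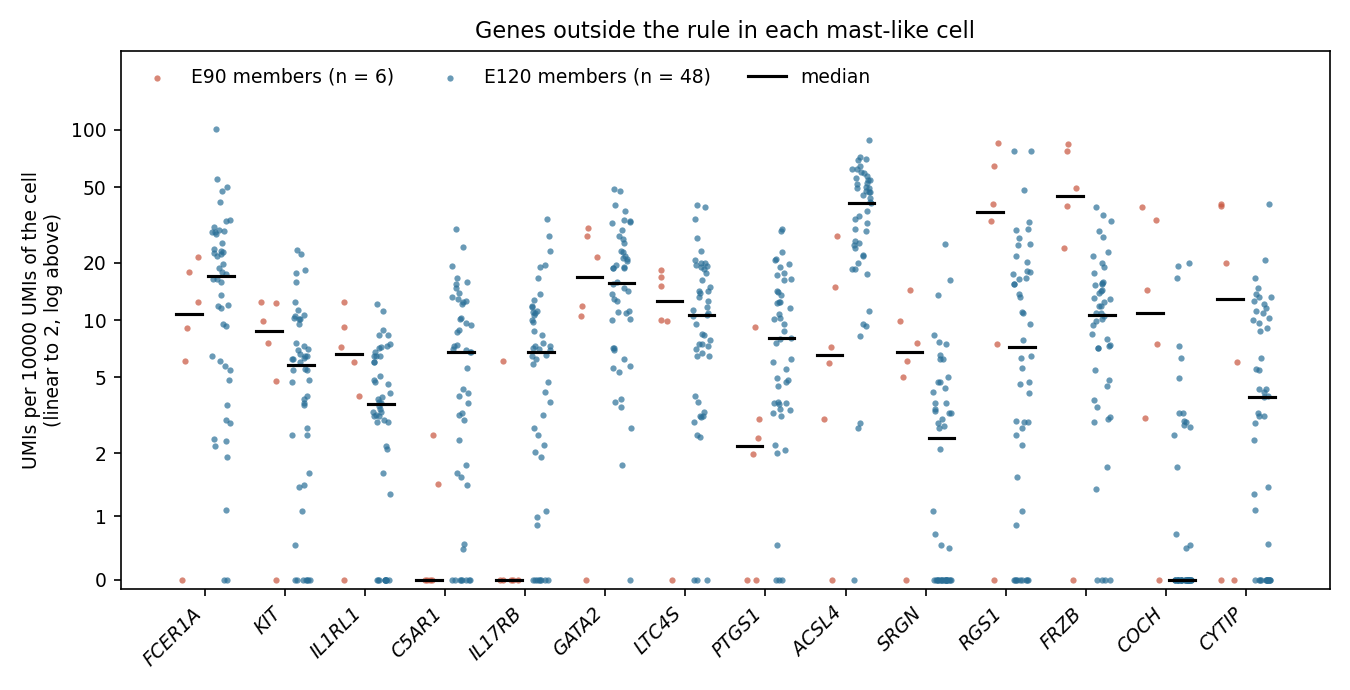
UMIs per 10000 UMIs of the cell for 14 genes outside the rule in each mast-like cell, with 6 cells of E90 and 48 of E120 and the median as a bar, on an axis that is linear to 2 and logarithmic above. ACSL4 had a median of 41.4 at E120 and 6.57 at E90, RGS1 7.19 and 36.9, and 1 E90 cell was at 0 for most genes.

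GATA2, higher in mast-like cells at both stages, was in all but 1 cell of each stage. It had 6, 11, 0, 9, 10 and 7 UMIs in the E90 cells and 0, 7.0 and 67 (lowest, median, highest) at E120. Its sum was 1531 CPM (1108 to 2062) against 15.2 at E90 and 1376 CPM (1248 to 1514) against 7.51 at E120. GATA1, an erythroid, megakaryocyte and mast cell factor, stood at 142 CPM (4 UMIs in 2 cells) against 0.364 and at 84.8 CPM (26 UMIs in 19 cells) against 0.387. MITF, which also serves melanocytes, stood at 107 CPM (3 UMIs) against 4.33 and at 42.4 CPM (13 UMIs) against 1.41. All 28 listed factors were in the table. At E90, 11 reached 100 CPM, with 7 higher (GATA2, GATA1, MITF, FLI1, LMO2, FOSB and NR4A1) and BHLHE40 lower, and at E120, 8 did, with 5 higher (GATA2, FLI1, LMO2, BHLHE40 and FOSB). BHLHE40 had no UMI in the 6 E90 cells, and the bound on its ratio, given further below, does not reach a fold of 2. The median log2 ratio of the 28 factors was -0.44 at E90 and 1.60 at E120. Scaling by median of ratios left 3 higher and 3 lower at E90 and 4 higher and 1 lower at E120. SPI1, RUNX1, CEBPA and ERG, which are on the same list of mast cell factors, had no UMI in mast-like cells of both stages.

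Immediate early genes, which cells switch on within minutes of a stimulus and which tissue dissociation can also switch on, were present in mast-like and other cells alike. FOS stood at 4522 CPM in E90 mast-like cells against 7487 in the other cells and at 1252 against 2321 at E120. FOSB stood at 2813 against 555 at E90 and at 352 against 114 at E120. It had 2, 13.0 and 27 UMIs (lowest, median, highest) in the 6 E90 cells, all of which held it, and was in 28 of 48 E120 cells. JUN stood at 2884 against 2198 at E90 and 1647 against 1562 at E120, within the fold of 2 used here. The part of dissociation in these levels was not tested.

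Granule genes were represented by few members, since 17 of 27 listed genes were in the table under their symbols and the chymase and tryptase genes CMA1, TPSAB1 and TPSB2 were not among those. At E90, 5 of the 17 reached 100 CPM and all 5 were higher: SRGN, SERPINB1, VWA5A, STX11 and SYTL3. At E120, 3 did and were higher: SRGN, SERPINB1 and VWA5A. In the other cells the 17 genes summed to 124 CPM at E90, of which SERPINB1 took 29.4, and to 85.3 CPM at E120. None of them could thus have been counted as lower at either stage. Over the 17 genes the median log2 ratio was 0.00 at E90 and 1.58 at E120. SRGN, the serglycin core protein gene, stood at 712 CPM (435 to 1100) against 2.74 at E90 and at 205 CPM (158 to 263) against 0.913 at E120. It had 5, 2, 0, 6, 2 and 5 UMIs in the E90 cells and was in 29 of 48 E120 cells with a median of 1 and a highest value of 8. VWA5A stood at 498 CPM against 10.0 and at 845 CPM against 11.1. SERPINB1, an inhibitor of granule proteases, stood at 142 CPM (4 UMIs) against 29.4 and at 104 CPM against 11.3. With median-of-ratios scaling 4 of the granule genes were higher at E90 and 2 at E120. SLC18A2, the transporter that loads histamine into granules, had 0 UMIs at E90 and 3 at E120.

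Of the signalling genes that act below the IgE receptor, BTK, VAV1 and PTPN6 were higher in mast-like cells at both stages. Of 32 listed genes, 27 were in the table, and 14 of these had no UMI in mast-like cells at E90 and 3 had none at E120. At E90, 5 reached 100 CPM and were higher (BTK, VAV1, INPP5D, PTPN6 and STIM1), and at E120, 4 were (BTK, VAV1, PTPN6 and CORO1A), and none was lower. Median-of-ratios scaling gave the same counts. In the other cells the 27 genes summed to 114 CPM at E90 and 67.8 CPM at E120. STIM1 took 22.1 CPM of the E90 sum, so no gene stood at 100 CPM in the other cells of either stage. A gene could thus reach 100 CPM only through mast-like cells, and none could have been counted as lower. Over the 27 genes the median log2 ratio was 0.00 and 3.33. VAV1, an exchange factor of haematopoietic cells, stood at 356 CPM against 2.38 at E90 and at 267 CPM against 0.806 at E120, with UMIs in 5 of 6 and 37 of 48 cells. The kinase BTK stood at 463 CPM (246 to 791) against 2.81 and at 124 CPM (87.7 to 170.1) against 0.602. STIM1, the calcium sensor of the endoplasmic reticulum, stood at 427 CPM against 22.1 at E90 and at 62.0 CPM against 16.6 at E120. The kinases LYN and SYK, which sit next to the receptor, had 26 and 7 UMIs at E120 and none at E90, where 3 UMIs were 107 CPM.

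In eicosanoid metabolism, LTC4S, PTGS1 and LTA4H were higher in mast-like cells at both stages. The genes of the first leukotriene step were sparse in mast-like and other cells alike. LTC4S, leukotriene C4 synthase, had 5, 4, 0, 7, 6 and 10 UMIs in the E90 cells and 0, 5.0 and 15 (lowest, median, highest) at E120. It stood at 1139 CPM (779 to 1608) against 7.07 and at 841 CPM (742 to 950.5) against 2.96. PTGS1, cyclooxygenase 1, stood at 249 CPM (7 UMIs) against 3.74 at E90 and at 665 CPM against 3.07 at E120, in 4 of 6 and 45 of 48 cells. LTA4H, which makes leukotriene B4, stood at 214 CPM against 48.8 and at 147 CPM against 53.0. ALOX5 and its partner ALOX5AP had 1 and 0 UMIs at E120 and none at E90. Of the other cells, 0.202% at E90 and 0.0292% at E120 had a UMI of ALOX5, and 0.144% and 0.102% one of ALOX5AP. These low counts therefore do not set mast-like cells apart. Of 16 listed genes 15 were in the table, and LTC4S, PTGS1 and LTA4H were the 3 that reached 100 CPM at either stage. In the other cells the 15 genes summed to 132 CPM at E90 and 106 CPM at E120, of which LTA4H took 48.8 and 53.0. A gene could thus reach 100 CPM only through mast-like cells, and none could have been counted as lower. Over the 15 genes the median log2 ratio was -0.18 and -0.10. ACSL4, an acyl-CoA synthetase that prefers arachidonic acid and that was named by its ratio and not from this list, stood at 819 CPM against 20.9 at E90 and at 2579 CPM against 18.6 at E120. It was in 47 of 48 E120 cells, with a median of 17 and a highest value of 33 UMIs.

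Of 28 listed cytokine and growth factor genes, 21 were in the table, of which 16 had no UMI in mast-like cells at E90 and 9 had none at E120. Over the 21 genes the median log2 ratio was -0.97 at E90 and -0.23 at E120. LIF, a cytokine of the interleukin 6 family, was higher at both stages. It had 2, 14, 0, 0, 0 and 3 UMIs in the E90 cells, so that 1 cell held 14 of 19 UMIs, and stood at 676 CPM against 3.64. At E120 it was in 26 of 48 cells and stood at 183 CPM against 0.945. TGFB1 stood at 178 CPM (5 UMIs) against 24.4 and at 153 CPM against 12.2. The epidermal growth factor family gene AREG had 0 UMIs at E90, with an interval up to 131 CPM that includes the 114 CPM of the other cells, although it was counted as lower. IL13, TNF and CCL2 had no UMI in mast-like cells of both stages.

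LAPTM5, ARHGDIB, LCP1 and CYBA, genes of leukocytes in general, were higher in mast-like cells at both stages. Of 16 pan-leukocyte genes, 15 were in the table, and 7 of these had no UMI in mast-like cells at E90 and 4 had none at E120. The 4 named genes were those that reached 100 CPM at E90, and CORO1A also did at E120, where it was higher too. In the other E120 cells the 15 genes summed to 96.1 CPM, so none could have been counted as lower there. The median log2 ratio was 1.90 and 3.91. LAPTM5, a lysosomal protein of blood cells, had 7, 6, 0, 7, 5 and 8 UMIs in the E90 cells and 0, 9.0 and 35 (lowest, median, highest) at E120, and stood at 1175 CPM against 14.8 and at 1490.2 CPM against 14.6. PTPRC, the CD45 gene, had 0 UMIs at E90 and 7 at E120 (22.8 CPM), and CD53 and TYROBP had none at both stages. CD53 had no UMI in the other cells of either library and TYROBP had none in the other E120 cells, so these zeros do not set mast-like cells apart. Of 14 macrophage and monocyte genes in the table, 1 was above 0 in mast-like cells at E90 and 3 at E120. CSF1R and CD68 were sparse even in the 57 E90 cells with at least 2 of 9 macrophage genes, with a UMI in 7 and 1 of them. In mast-like cells the defining genes CD14, CSF1R and CD68 were at 0 at both stages. CD163, a scavenger receptor best known from macrophages, was not: it had 22 UMIs in 13 of 48 E120 mast-like cells, with a highest count of 6, and stood at 71.7 CPM against 0.430 in the other cells, where 0.380% of cells had a UMI. It had no UMI in the E90 mast-like cells. The summed level of the 14 genes was 35.6 CPM in mast-like cells and 45.1 in the other cells at E90, and 111 and 88.7 CPM at E120, with a per-cell range of 0 to 0.0151% of UMIs at E90 and 0 to 0.166% at E120. The part of macrophage RNA in these levels was not tested. Of 13 listed lymphocyte genes 5 were in the table, and of 9 basophil or eosinophil genes only CEBPE was. None of these had a UMI in any mast-like cell. CEBPE was also at 0 in all 6848 other E120 cells and in 6917 of 6925 other E90 cells. Its absence therefore cannot tell mast-like cells from basophils or eosinophils.

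The genes with the largest ratios to the other cells included several that belonged to no mast cell list. At E90 the 20 genes with the largest log2 ratio ranged from 8.40 (CYTIP) to 6.63 (SAMSN1), and at E120 from 8.15 (FCER1A) to 6.58 (LAPTM5). In both sets stood FCER1A, IL1RL1, LTC4S, GCSAML, FRZB, RGS1, VAV1 and SRGN. FRZB, a secreted antagonist of Wnt signalling, had 25, 31, 0, 10, 13 and 56 UMIs in the E90 cells and 0, 5.0 and 21 (lowest, median, highest) at E120. It stood at 4806 CPM (4030 to 5689) against 17 at E90 and at 923 CPM (818 to 1037) against 4.11 at E120. RGS1, a brake on G protein signalling in leukocytes, had 43, 3, 0, 17, 21 and 22 UMIs in the E90 cells and 0, 3.0 and 36 at E120, and stood at 3774 CPM against 34.0 and at 1040.2 CPM against 5.08. COCH, known as a secreted protein of the inner ear and lymphoid follicles, had 17, 3, 0, 6, 1 and 26 UMIs in the E90 cells and stood at 1887 CPM against 14.0. In each of these 3 genes the E90 cell without FCER1A, KIT and GATA2 was at 0 and the other 5 were not.

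Other leading genes at E90 were CYTIP, which binds cytohesins in leukocytes (1567 CPM against 3.64), TNFAIP3, an inhibitor of NF-kB signalling (748 against 3.47), and MCTP1 (641 against 2.68). DDC, the decarboxylase of dopamine and serotonin synthesis, stood at 214 CPM against 0.529 on 6 UMIs. The low end of that list rests on few counts: GATA1 and FYB1 had 4 UMIs each, and all 4 of FYB1 were in 1 cell. Leading genes at E120 that were not in the mast cell lists were IL17RB, a receptor chain of interleukin 25 (548 CPM against 1.53, in 40 of 48 cells), TMEM207 (365 against 1.5), DHRS9 (209 against 0.977) and SLC45A3 (753 against 6.69). GCSAML stood at 427 CPM against 1.75 at E90 and at 704 CPM against 2.45 at E120, where 47 of 48 cells held it.

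**Figure D3:**
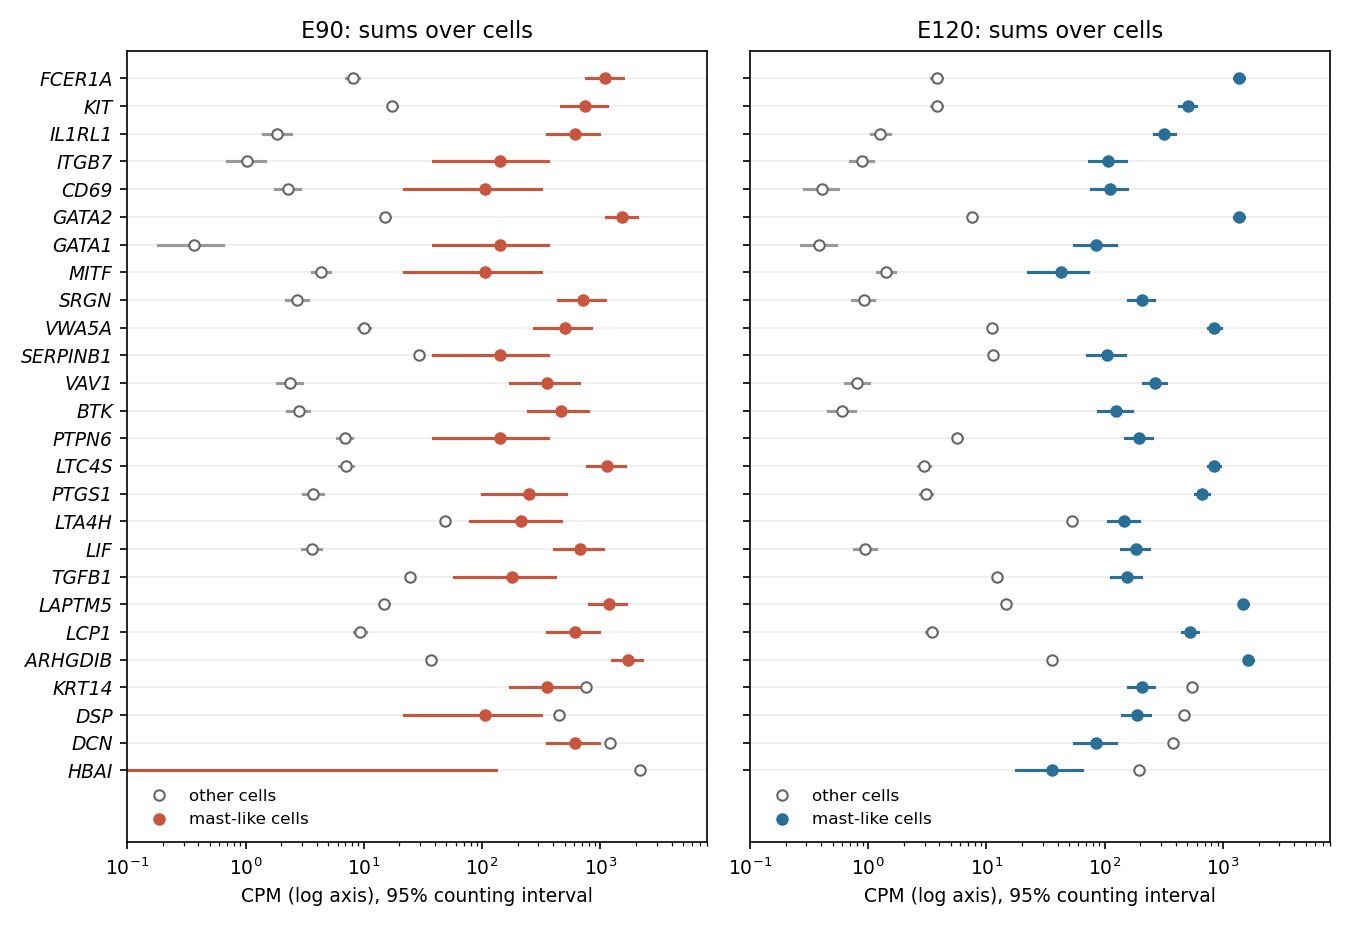
Summed levels of 26 genes in mast-like cells (filled) and in the other cells of the same library (open) at E90 and E120, in CPM on a log axis that starts at 0.1, with 95% counting intervals and no filled point where mast-like cells had 0 UMIs. FCER1A stood at 1104 and 1357 CPM in mast-like cells and 8.10 and 3.79 in the others, while KRT14, DSP, DCN and the haemoglobin gene HBAI were lower in mast-like cells.

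Several epithelial, dermal and hair genes were lower in mast-like cells than in the other cells, and none of these 3 lists held a higher gene. Of 13 epithelial genes in the table, 8 reached 100 CPM at E90 and 7 were lower, and 3 reached it at E120 and all 3 were lower. KRT14 stood at 356 CPM against 759 at E90, of which 8 of 10 UMIs were in the cell without FCER1A, KIT and GATA2, and at 205 CPM against 552 at E120. The 13 genes summed to 3169 CPM against 8165 at E90 and 574 against 1909 at E120. At E90 they took 1.19% of the UMIs of the cell without FCER1A, KIT and GATA2, where the median of the 6 mast-like cells was 0.129%. Of 9 dermal genes, 5 were lower at E90 and 1 at E120, where 7 had no UMI in mast-like cells, with sums of 1709 CPM against 3904 and of 91.3 against 442. The dermal genes took 0.025% to 0.484% of the UMIs of each E90 mast-like cell (median 0.109%). Of 12 hair shaft and root sheath genes, none reached 100 CPM at E90, and at E120 all did and 7 were lower. These 12 genes summed to 8905 CPM in E120 mast-like cells and 22856 in the other E120 cells, and took 0.116% to 3.78% of the UMIs of each mast-like cell. The 7 E120 mast-like cells above 10000 UMIs had 0.116% to 3.90% of their UMIs in epithelial and hair genes (median 1.40%), and the other 41 had 0.135% to 1.07% (median 0.362%). The 3.90% was in the cell of 34953 UMIs, which held 132 of the 301 UMIs of the hair keratin KRT71. Of 7 erythroid and megakaryocyte genes, 2 were lower at E90 and 1 at E120. The haemoglobin gene HBAI had 0 UMIs in E90 mast-like cells against 2184 CPM in the others, at least 20.4-fold lower, and stood at 35.9 against 194 CPM at E120. Of 9 melanocyte genes none was above 0 in E90 mast-like cells and 1 was at E120, of 7 glial genes 0 and 1, of 9 endothelial genes 2 and 5, and of 8 mural genes 2 and 3. The part of RNA from these cell types in the levels above was not tested.

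Markers of division were uneven between E120 mast-like cells. Of 13 cell cycle genes in the table, TOP2A (topoisomerase of dividing cells) and CENPF (a centromere protein) were higher at E120, at 466 CPM against 204 and at 571 against 264. With median-of-ratios scaling neither was counted as higher. Together they had 318 UMIs in 21 of 48 cells, with at least 5 UMIs in 13 cells, and 5 cells held 217 of the UMIs (68.2%). The 7 cells above 10000 UMIs held 122 of the 318, and the highest cell had 40 UMIs of TOP2A and 49 of CENPF in 13747 UMIs. At E90 the pair had 4 UMIs in 3 cells and was counted as lower, with intervals (8.62 to 257 CPM for each) that included the 188 and 162 CPM of the other cells. PCNA, MCM3 and MCM5, which act in DNA replication, were counted as higher at E90 on 3, 4 and 7 UMIs, and none of the 3 was with median-of-ratios scaling. Over the 13 genes the median log2 ratio was 0.75 at E90 and 0.53 at E120.

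Ligands and survival factors of mast cells were read in the other cells. KITLG, stem cell factor, stood at 37.3 CPM in the other E90 cells and at 308 CPM in the other E120 cells, where 55.5% of cells had a UMI against 13.7% at E90, at median depths of 13107 and 3713 UMIs. After thinning to 2000 UMIs these shares were 30.3% and 7.55%. IL33, the ligand of IL1RL1, stood at 7.27 and 1.01 CPM, and CXCL12, the ligand of CXCR4, at 39.3 and 6.39 CPM. Of 7 such genes in the table, TGFB1 was higher in mast-like cells at both stages, and KITLG was lower at E120, at 153 CPM in 9 cells. Since E120 cells came from dissected follicles and E90 cells from whole skin, these levels cannot be told apart from the choice of cells.

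Some genes used to recognise mast cells were also in other cell types of the libraries. KIT and MITF serve melanocytes, and 188 E90 cells with at least 2 of 7 melanocyte genes had 151 CPM of KIT and 25 CPM of MITF, below the 748 and 107 CPM (3 UMIs) of E90 mast-like cells. Those cells had 663 CPM of the pigment cell gene MLANA, which had no UMI in mast-like cells, and 8.34 CPM of FCER1A. Cells with at least 2 of 9 macrophage genes numbered 57 at E90 and 21 at E120. They had 197 and 19.5 CPM of FCER1A, 634 and 399.8 CPM of RGS1, and 259 and 336 CPM of LAPTM5, each below the mast-like cells of their stage. Their PTPRC stood at 43.1 and 78.0 CPM, and their KIT at 9.23 and 4.88 CPM. Cells with 2 of the macrophage genes thus shared RGS1 and LAPTM5 with mast-like cells but held little KIT.

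Between stages, ACSL4, PTGS1, SLC45A3, C5AR1 and IL17RB were higher in E120 than in E90 mast-like cells. COCH, TNFAIP3, FRZB, RGS1, CYTIP, LIF and SRGN were lower in the cells of the rule, but for CYTIP, LIF and SRGN the interval of the ratio included 1 once cells just outside the rule were added, and for FRZB and RGS1 the ratio depended on how many were. In the sums of mast-like cells 1791 genes reached 100 CPM at 1 stage or both, and of these 310 were higher (17.3%) and 578 lower (32.3%) at E120 than at E90, with a median log2 ratio of -0.30. Median-of-ratios scaling moved that median by 0.64 and turned the split to 710 higher and 218 lower, so ratios near 1 have no fixed direction. For FCER1A the ratio of E120 to E90 was 1.23 (0.853 to 1.83), for KIT 0.672 (0.424 to 1.12), for GATA2 0.899 (0.656 to 1.26), for LTC4S 0.738 (0.510 to 1.10) and for LAPTM5 1.27 (0.890 to 1.87). Each of these intervals included 1, which does not show that the levels were equal. For KIT, GATA2 and LTC4S the sign turned under median-of-ratios scaling, with log2 ratios of 0.07, 0.49 and 0.20 against -0.57, -0.15 and -0.44.

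Lower at E120 were COCH, with a ratio of 0.0743 (0.0485 to 0.113), TNFAIP3 with 0.109 (0.0586 to 0.205), FRZB with 0.192 (0.156 to 0.237), MCTP1 with 0.214 (0.120 to 0.394), CYTIP with 0.252 (0.177 to 0.364), LIF with 0.270 (0.158 to 0.481), RGS1 with 0.276 (0.221 to 0.347) and SRGN with 0.289 (0.172 to 0.504). Under median-of-ratios scaling each log2 ratio stayed below -1, but the ratios differed with the marker rule. The E90 sums come from 6 cells, and the 20 E90 cells with CPA3 alone at 2 UMIs or more had lower levels of all 8 genes. In such cells CYTIP stood at 199.6 CPM at E90 and 578 at E120, a ratio of 2.90 (1.80 to 4.94), and SRGN at 105 and 257, a ratio of 2.44 (1.25 to 5.31). There the ratio of FRZB was 1.06 (0.832 to 1.36), that of COCH 0.895 (0.482 to 1.75), that of RGS1 0.544 (0.434 to 0.684) and that of TNFAIP3 0.445 (0.226 to 0.893).

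With those cells added to the mast-like cells (26 at E90 and 101 at E120), the ratios of CYTIP, LIF and SRGN were 0.943 (0.715 to 1.26), 0.951 (0.595 to 1.59) and 0.944 (0.632 to 1.45), each with an interval that included 1. The ratios of COCH, TNFAIP3, RGS1 and FRZB were 0.255 (0.183 to 0.357), 0.261 (0.167 to 0.412), 0.470 (0.402 to 0.551) and 0.526 (0.450 to 0.617). With all cells of at least 1 marker gene, most of which had a single CPA3 UMI at E90, CYTIP, SRGN, LIF and FRZB were above 1, at 2.41, 2.28, 2.10 and 1.24, RGS1 was at 1.01, and COCH and TNFAIP3 were below 1, at 0.608 and 0.595. FCER1A had a ratio of 2.81 (2.13 to 3.78) in the 26 and 101 cells, against 1.23 by the rule, and KIT, GATA2 and LTC4S had ratios of 1.40, 1.54 and 1.31. By the rule FOS and FOSB were lower at E120 too, with 0.277 (0.226 to 0.341) and 0.13 (0.0928 to 0.170). In the 26 and 101 cells their ratios were 0.183 (0.164 to 0.204) and 0.176 (0.143 to 0.217). In the other cells FOS stood at 7487 CPM at E90 and 2321 at E120, and FOSB at 555 and 114, so both were lower at E120 outside mast-like cells as well. RGS1, FRZB and COCH were likewise lower in the other E120 cells (5.08 against 34.0 CPM, 4.11 against 17 and 0.752 against 14.0), but CYTIP was not (8.21 against 3.64).

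Higher at E120 were ACSL4, with a ratio of 3.15 (2.08 to 5.0), PTGS1 with 2.67 (1.27 to 6.72), SLC45A3 with 2.35 (1.22 to 5.21), C5AR1 with 6.96 (1.89 to 58.0) and IL17RB with 7.69 (2.10 to 64.0). The last 2 rest on 2 UMIs each at E90. In the 26 and 101 cells the ratios of ACSL4, PTGS1, SLC45A3, C5AR1 and IL17RB were 6.97, 2.50, 5.16, 15.5 and 31.2. In that set FCER1A and LAPTM5 also had ratios above 1, at 2.81 and 2.56, and PTGS1 lay below both. A ratio above 1 there is thus not particular to these 5 genes. ACSL4 in the other cells stood at 20.9 CPM at E90 and 18.6 at E120. TMEM207 had 1 UMI at E90 and 112 at E120, a ratio of 10.3 (1.80 to 409). HRH4, from 0 UMIs at E90, was at least 1.5-fold higher at E120 by the limit of 3 UMIs, and at least 1.17-fold by the exact interval. PLA2G7, which encodes an acetylhydrolase of platelet-activating factor, had 0 UMIs at E90 and 132 at E120 (430.4 CPM, in 43 of 48 cells). It was at least 4.03-fold higher by the limit of 3 UMIs and at least 3.23-fold by the exact interval. The other E120 cells had 6.54 CPM of it.

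The extremes of the contrast between stages were mostly genes of other skin cells. Of the 10 largest ratios, all from 0 UMIs at E90, 4 were hair keratins (KRT35, KRT85, KRT71 and KRT25), at least 30.8-fold higher for KRT35, and the others were ID1, AHCY, FABP3.1, BHLHE40, PLA2G7 and BAMBI. In 8 of the 10 the other E120 cells stood higher than the mast-like cells, for KRT35 at 5855 CPM against 3287 and for ID1 at 1764 against 769.6. PLA2G7 and BHLHE40 were the exceptions. The 10 smallest ratios were OGN, KRT4, COL1A2, ASPN, SOX18, LUM, FYB1, TGFB2, LARGE2 and LRRC17, each with 0 UMIs at E120 and 4 to 9 UMIs at E90. OGN and COL1A2, genes of dermal fibroblasts, stood at 320.4 and 285 CPM in E90 mast-like cells and 731 and 616 in the other E90 cells. In the E90 mast-like cells 1 cell held 5 of the 8 UMIs of COL1A2. All 11 hair genes and all 5 dermal genes that reached 100 CPM followed their libraries, with 11 of 11 higher and 5 of 5 lower at E120.

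**Figure D4:**
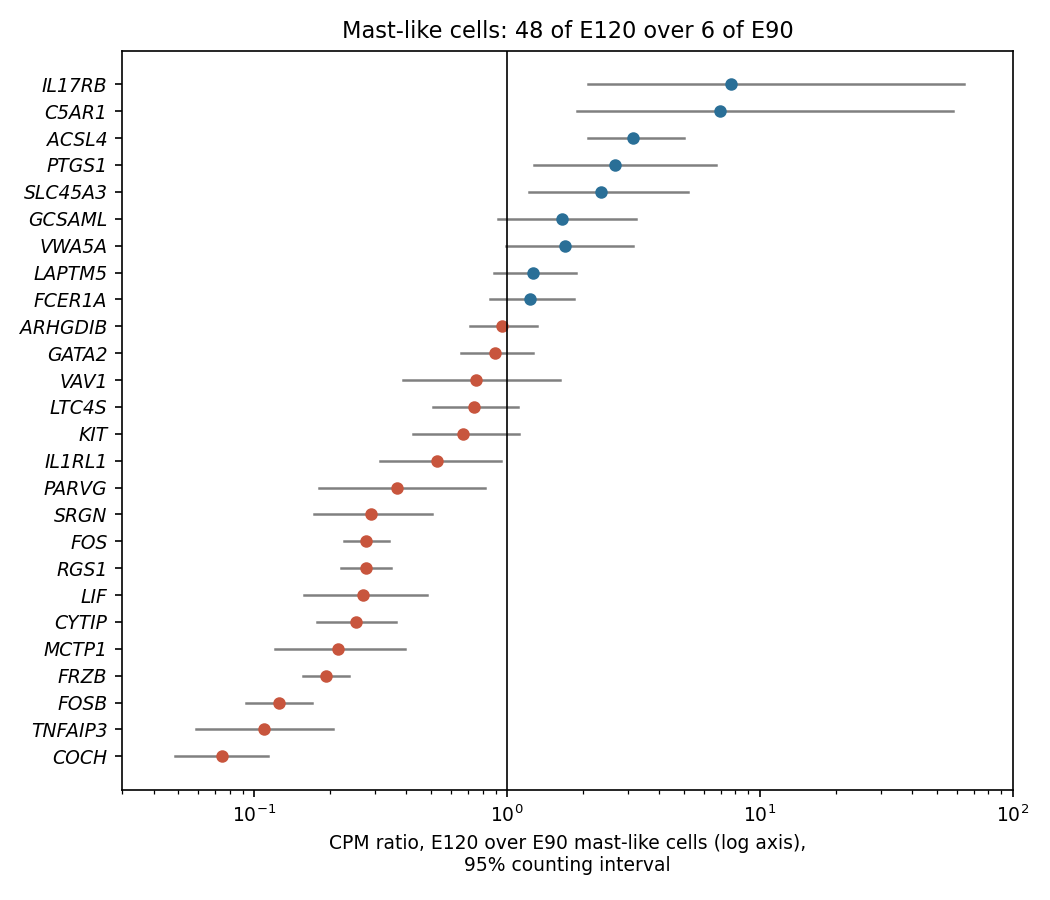
Ratio of the summed CPM of 48 E120 mast-like cells to that of 6 E90 mast-like cells for 26 genes, on a log axis, with 95% counting intervals and a line at 1. IL17RB (7.69) and C5AR1 (6.96) lie highest with wide intervals, FCER1A, GATA2, KIT and LTC4S span 1, and COCH (0.0743) lies lowest.

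A pair of genes that the table lists only by identifier, singled out after their values had been seen, split the mast-like cells. ENSCHIG00000016379 had 0 UMIs in 29 of 48 E120 cells and at least 10 UMIs in 13, with a highest value of 592. ENSCHIG00000018729 had 0 UMIs in 27 and at least 10 in 9, with a highest value of 94. No E120 mast-like cell held at least 10 UMIs of both, and 26 held 10 of neither. Near the limit of 10 UMIs, 2 cells had 5 to 9 UMIs of the first and 3 of the second. The median depth was 3571 UMIs in cells high in the first and 4017 in those high in the second. Among the 53 E120 cells with CPA3 alone at 2 UMIs or more, 12 were high in the first, 12 in the second and 2 in both. At E90, 4 of 6 mast-like cells were high in the second and none in the first, but of the 20 cells with CPA3 alone at 2 UMIs or more 7 were high in the first, 4 in the second and 2 in both. The summed level of the first was 9867 CPM against 21.8 in the other cells at E120, and 214 against 104 at E90. That of the second was 1458 CPM against 7.70 at E120 and 5447 against 15.6 at E90. The files give no name for either gene.

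**Figure D5:**
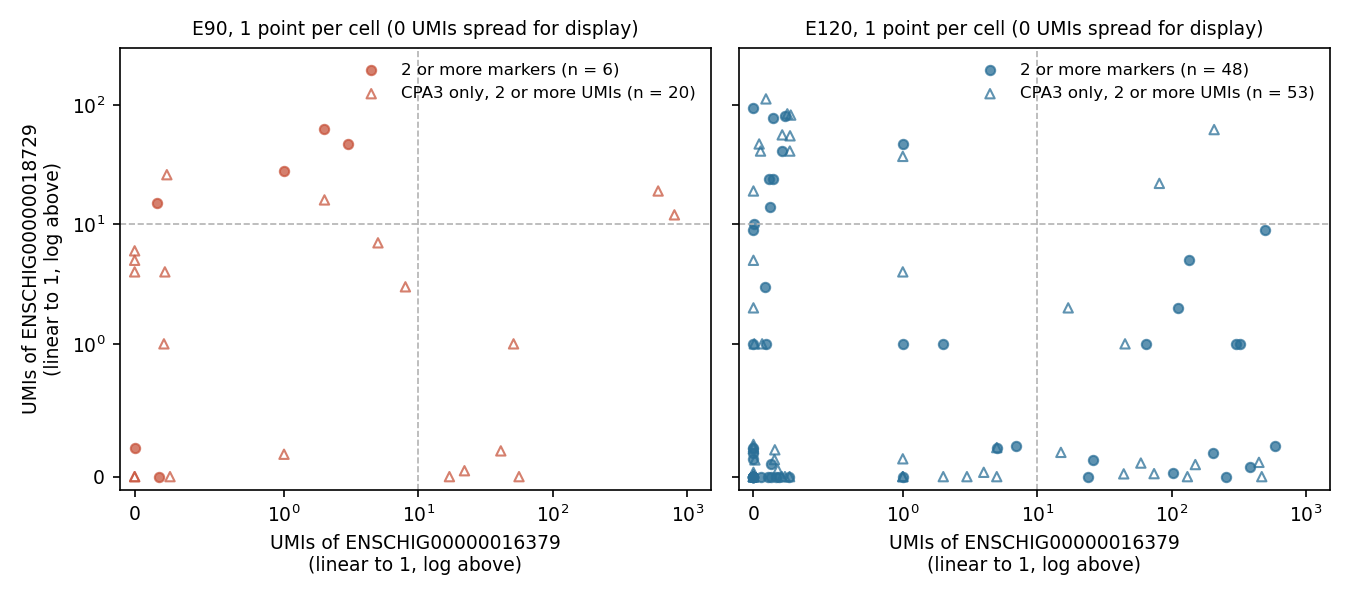
UMIs of 2 genes listed only by identifier in each mast-like cell (filled) and in each cell with CPA3 alone at 2 UMIs or more (open) at E90 and E120, on axes linear to 1 and logarithmic above, with dashed lines at 10 UMIs and cells at 0 spread for display. No mast-like cell lies above both lines, and 2 of the 53 open E120 cells and 2 of the 20 open E90 cells do.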

How the data were processed

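The deposited table held natural log values of 16739 genes in 20676 cells. From the values, the authors' scale was 10000 per cell, then natural log with 1 added. Cell Ranger 3.0.2 was used, per the submitters' processing notes. The genome build, annotation and filters are not given in the sources used here. UMI counts were recovered by inversion, taking the smallest value in a cell as 1 UMI, and 100% of nonzero values then came out whole (tolerance 0.01). The design had assumed counts, and the sums are of recovered counts.

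Cells were assigned to stages by the opening of their names. The members, the 21 gene lists (255 of 334 listed entries in the table) and the comparisons were chosen with earlier results of these data known. Counts were summed over cells and scaled to CPM, and compared as log2 of CPM + 1 (Python 3.11.15, numpy 2.4.6, scipy 1.17.1, pandas 2.3.3). No cell was removed as a doublet and no doublet caller was run; leaving out cells above the 95th percentile of UMIs was an alternative. Named were the 20 genes with the largest ratio in each library and the 10 largest and 10 smallest between stages, among genes with a symbol and at least 100 CPM (outside the rule in each library), plus list members. The scripts were tested on simulated data. Alternatives were other marker rules, filters, scalings, pseudocounts and weights. UMI counts of near-identical gene copies cannot be separated here.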

Additional observations from a re-analysis of the deposited data

Results flagged for a closer look

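BHLHE40, a transcription factor of mast cells and of many other cells, was in opposite directions at the 2 stages relative to the other cells of its library. The log2 ratio of CPM + 1 was -7.61 at E90 and 1.91 at E120. The E90 value rests on 0 UMIs in 6 cells and depends on the pseudocount. Against the 194 CPM of the other E90 cells it means at least 1.81-fold lower by the limit of 3 UMIs, short of the fold of 2. At E120 mast-like cells stood at 437 CPM and the other cells at 116 CPM, with a UMI in 39 of 48 mast-like cells. The difference between stages was not tested, since each stage was 1 library.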

How the results depend on the processing

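With at least 1 marker gene the shares were 2.91% at E90 and 2.25% at E120, and the genes counted were 18 (E90), 83 (E120) and 455 (between stages), against 890, 342 and 888. With at least 3 markers, or without CPA3, shares were 0% and 0.116% and 637 genes were counted at E120. Without MS4A2 shares were 0.0289% and 0.348%, with 1829 genes at E90 and 1754 between stages. Without HPGDS the E120 share was 0.493%. After thinning to 2000 UMIs shares were 0% and 0.319%, with 689 genes at E120. Equal weight per cell gave 531 genes at E120. A filter of 50 CPM gave 1584, 651 and 1590 genes, and no filter 9092, 4863 and 6897. At least 10 UMIs, added after seeing the data, gave 159 at E90, since fewer genes were tested. The E90 contrasts could not be computed where no E90 cell met the rule. With the cells of CPA3 alone at 2 UMIs or more, an alternative added after seeing the data, shares were 0.375% and 1.46%, with 185 genes at E90 and 506 between stages. Some log2 ratios changed sign. Between stages KIT, GATA2 and LTC4S turned to 0.49, 0.62 and 0.39 with the CPA3 cells, to 1.47, 1.73 and 1.56 with at least 1 marker, and to 0.0670, 0.49 and 0.20 under median of ratios. With at least 1 marker FRZB, MCTP1, CYTIP, LIF, RGS1 and SRGN also turned, to 0.31, 0.56, 1.26, 1.04, 0.00860 and 1.17. Equal weight turned GATA2 and LTC4S to 0.0608 and 0.0580, leaving out HDC turned GATA2 to 0.0157, leaving out MS4A2 turned FCER1A to -0.29 and LIF to 0.10, and the gene and mitochondrial filter turned FCER1A to -0.11. At E90, at least 1 marker turned BHLHE40, JUN, LTA4H, AREG, CYBA, PCNA, MCM3 and MCM5 to 0.0497, -0.11, -0.0346, 0.000111, -0.0863, -0.0632, -0.46 and -0.00501. Leaving out MS4A2 (2 E90 cells) turned GATA1, C5AR1, NR4A1, PCNA and MCM3 to -0.58, -2.52, -4.47, -4.53 and -5.96. FYB1 turned to -0.64 without HDC (5 cells), CENPF to 0.44 with the CPA3 cells, and JUN to -0.42 under median of ratios. At E120 JUN turned to -0.10, -0.11, -0.34, -0.25, -0.16 and -0.00708 with the CPA3 cells, at least 1 marker, equal weight, thinning, median of ratios and without the deepest cells. The cause of these turns was not tested. Median-of-ratios scaling gave 262 higher and 732 lower at E90, 193 and 172 at E120, and 710 and 218 between stages, against 651 and 239, 246 and 96, and 310 and 578. Without the 2 cells that lacked FCER1A, KIT and GATA2, an alternative added after seeing the data, 975, 363 and 901 genes were counted. Other cells without any marker, also added then, gave 890 at E90 and 343 at E120. No paired analysis was possible because each stage was 1 library.

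Depth limits E90 most: 6 cells and 28088 UMIs let a gene at 0 stand at up to 107 CPM. With 1 library per stage the values describe these libraries, and stage, library and dissociation cannot be told apart.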

Other observations

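Some low genes stood above their library in E120 mast-like cells: IL18, with 18 UMIs (58.7 CPM against 0.451), GRAP2, an adaptor of haematopoietic cells, with 26 UMIs (84.8 CPM against 0.226), and WAS, an actin regulator of haematopoietic cells, with 20 UMIs (65.2 CPM against 0.698). These genes were singled out after their values had been seen.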
